A study of Mus musculus with 18 samples.

Results

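Expression of 38 cell cycle genes was examined in 3 tissues of the embryonic mandible, 14 genes whose products act in S phase and 24 whose products act in mitosis. The genes were taken by their symbols from count files that list 38243 gene IDs, and each symbol matched 1 ID. The libraries came from female C57BL/6 embryos at embryonic day 16.5 (E16.5). There were 3 embryos heterozygous for the S252W substitution of the fibroblast growth factor receptor 2 gene, a mouse model of Apert syndrome (*Fgfr2+/S252W*), and 3 littermates without it (*Fgfr2+/+*). From each embryo mandibular bone, Meckel's cartilage (MC) and mandibular condylar cartilage (MCC) were cut out of frozen coronal sections by laser capture microdissection, giving 18 libraries from single embryos, 3 for each tissue and genotype. The study told carriers from littermates by PCR on tail DNA, and counts per gene do not show the allele.

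A cell that commits to division passes from G1 into S phase, copies its DNA once, and then separates the copies in mitosis. E2F transcription factors turn on the genes of replication at the entry into S phase. A later programme, in which MuvB complexes and FOXM1 take part, raises the mitotic genes. In growing cartilage, columns of dividing chondrocytes leave the cycle as they enlarge into hypertrophic chondrocytes, and in bone dividing osteoprogenitors precede osteoblasts that no longer divide.

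Libraries held between 8218548 and 15585778 fragments assigned to genes (median 10581032). Between 19.4% and 38.1% of these came from mitochondrial genes and between 5.58% and 39.4% from the single gene *Gm42418*, so part of the depth did not bear on the cell cycle genes. The *Gm42418* share differed between tissues without overlap, at 5.58% to 9.33% in bone, 10.9% to 20.2% in MCC and 24.1% to 39.4% in MC, and between the genotypes in bone, at 8.57% to 9.33% in *Fgfr2+/+* and 5.58% to 6.49% in *Fgfr2+/S252W*. With *Gm42418* and mitochondrial genes removed, 14 of 14 S phase and 24 of 24 mitosis genes that then passed the filter on low values were called higher in bone than in MCC (24.4% of all genes in that fit) and lower in MCC than in MC (27.2%). Between genotypes 0 of them were called in each tissue. With *Gm42418* and mitochondrial genes kept, 0.0872% of all genes were called between genotypes in bone and 0% in MC and in MCC. Bone and MCC carried the genes of their labels. A list of 14 osteoblast genes summed to 29246 to 63178 normalized counts in bone against 2944 to 28031 in the cartilages, where a normalized count is the gene's share of its library in CPM after scaling by the trimmed mean of M-values (TMM). A list of 15 chondrocyte genes summed to 34307 to 41653 in MCC and to 311 to 703 in bone. In MC the same list spanned 664 to 11116, and *Col2a1*, the main collagen of cartilage, spanned 212 to 7201 against 19339 to 25475 in MCC. The *Fgfr2+/+* MC library of replicate 1 was the lowest, inside the range of bone, and the *Fgfr2+/S252W* MC library of replicate 1 the highest. Of 14 chondrocyte genes tested, 13 were lower in bone than in MC (24.2% of all genes were) and 14 were higher in MCC than in MC (27.4% of all genes were). Counts that rest on the MC libraries were also computed without these libraries of replicate 1, some of them after the data had been seen.

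Expression per exon length (FPKM, CPM divided by the exon length in kilobases) placed *Pcna*, *Top2a* and *Mki67* highest among the 38 genes in bone and in MC. *Pcna*, the sliding clamp of the replication fork, had a median of 36.56 FPKM in bone, 26.68 in MC and 14.61 in MCC. *Top2a*, the topoisomerase that untangles sister chromatids, had medians of 29.13, 23.12 and 5.70, and *Mki67*, the coat protein of mitotic chromosomes, had medians of 26.58, 30.11 and 4.61. In MCC the median of *Mki67* was below those of *Mcm6* (5.58), *Ube2c* (5.44) and *Ccna2* (5.01). *Cdc6*, which loads the replicative helicase, had medians of 1.15, 1.21 and 0.17 FPKM. A gene was tested if it exceeded 1 FPKM in no fewer than 50% of libraries. Of the 38 genes 37 passed, and *Cdc6* did not. Since the filter counts libraries from every tissue, a gene could pass on bone and MC alone, and *Kif20a*, *Cdc45*, *Birc5*, *Nuf2*, *Cenpf* and *Kif23* passed with a median below 1 FPKM in MCC.

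Sequences upstream of the genes are shown because the S phase and mitosis genes moved together across tissues. RefSeq windows of 300 bases (GRCm38.p6, 250 bases before the start and 50 after) were at hand for 31 of the 38 genes, as 33 windows. 3 kinds of motif were searched on both strands: E2F sites (TTCCCGC or TTGGCGC or TTCGCGC or TTGCCGC), the cell cycle homology region or CHR (TTTGAA or TTTAAA), which MuvB complexes bind, and the CCAAT box. The windows of 2 helicase subunits, *Mcm3* (chr1:20820263-20820562, minus strand) and *Mcm6* (chr1:128359656-128359955, minus strand), and of 3 mitosis genes, *Ccnb2* (cyclin B2, chr9:70421505-70421804, minus strand), *Top2a* (chr11:99024140-99024439, minus strand) and *Cdk1* (the mitotic kinase, chr10:69352863-69353162, minus strand), read as follows in the direction of the gene, with the motif matches in capitals and overlapping matches run together.
Mcm3: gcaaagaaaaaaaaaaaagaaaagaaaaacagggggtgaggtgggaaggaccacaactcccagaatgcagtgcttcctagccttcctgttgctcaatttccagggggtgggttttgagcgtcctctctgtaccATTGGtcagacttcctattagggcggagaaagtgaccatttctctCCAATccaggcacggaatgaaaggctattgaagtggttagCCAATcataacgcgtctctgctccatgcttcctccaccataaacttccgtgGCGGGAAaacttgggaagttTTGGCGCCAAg
Mcm6: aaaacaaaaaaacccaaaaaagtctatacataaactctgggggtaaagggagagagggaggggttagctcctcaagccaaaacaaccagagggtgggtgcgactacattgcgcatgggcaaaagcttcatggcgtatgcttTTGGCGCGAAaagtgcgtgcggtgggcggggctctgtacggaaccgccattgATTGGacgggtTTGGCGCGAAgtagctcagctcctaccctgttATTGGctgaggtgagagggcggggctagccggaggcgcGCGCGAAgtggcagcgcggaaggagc
Ccnb2: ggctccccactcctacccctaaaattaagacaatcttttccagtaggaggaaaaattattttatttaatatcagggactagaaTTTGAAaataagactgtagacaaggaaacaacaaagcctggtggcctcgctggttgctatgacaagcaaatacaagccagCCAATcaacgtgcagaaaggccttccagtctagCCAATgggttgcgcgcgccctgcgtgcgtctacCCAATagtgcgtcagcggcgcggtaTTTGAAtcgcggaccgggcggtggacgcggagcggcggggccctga
Top2a: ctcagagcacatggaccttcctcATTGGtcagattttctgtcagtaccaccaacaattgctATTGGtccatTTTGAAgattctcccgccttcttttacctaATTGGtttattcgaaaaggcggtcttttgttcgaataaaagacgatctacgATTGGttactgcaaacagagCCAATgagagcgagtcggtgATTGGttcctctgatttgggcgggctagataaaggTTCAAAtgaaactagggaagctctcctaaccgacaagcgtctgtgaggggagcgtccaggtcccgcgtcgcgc
Cdk1: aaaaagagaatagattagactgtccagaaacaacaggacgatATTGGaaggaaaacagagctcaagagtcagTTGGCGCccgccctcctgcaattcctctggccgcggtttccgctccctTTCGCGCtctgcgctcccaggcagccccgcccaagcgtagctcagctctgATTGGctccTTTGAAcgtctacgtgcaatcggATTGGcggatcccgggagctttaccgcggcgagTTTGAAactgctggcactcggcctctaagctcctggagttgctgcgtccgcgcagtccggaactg
The *Mcm3* and *Mcm6* windows held 3 and 5 E2F matches and no CHR match. *Ccnb2* and *Top2a* each held 2 CHR matches and no E2F match, and *Cdk1* held 2 of each.

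The motifs were divided between the S phase and mitosis genes. E2F matches stood in 8 of 12 S phase windows (66.7%) and in 3 of 21 mitosis windows (14.3%), against 9.57% of all 32851 windows. CHR matches stood in 4 of 12 S phase windows (33.3%) and in 19 of 21 mitosis windows (90.5%), against 27.6% of all windows. The mitosis windows without a CHR match belonged to *Nuf2*, a kinetochore subunit, and *Bub1*, a checkpoint kinase. CCAAT was common to both, in 83.3% of S phase and 81.0% of mitosis windows, against 37.4% of all. Both E2F and CHR letters occurred in 16.7% of S phase windows, 14.3% of mitosis windows and 1.56% of all windows. E2F matches overlapped CCAAT in 1 window each of *Mcm7* and *Ccnb1*. Members' windows had a median GC content of 57.3% (S phase) and 60.7% (mitosis) against 52.7% for all windows. A match is a description of letters, and binding was not measured.

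**Figure D1:**
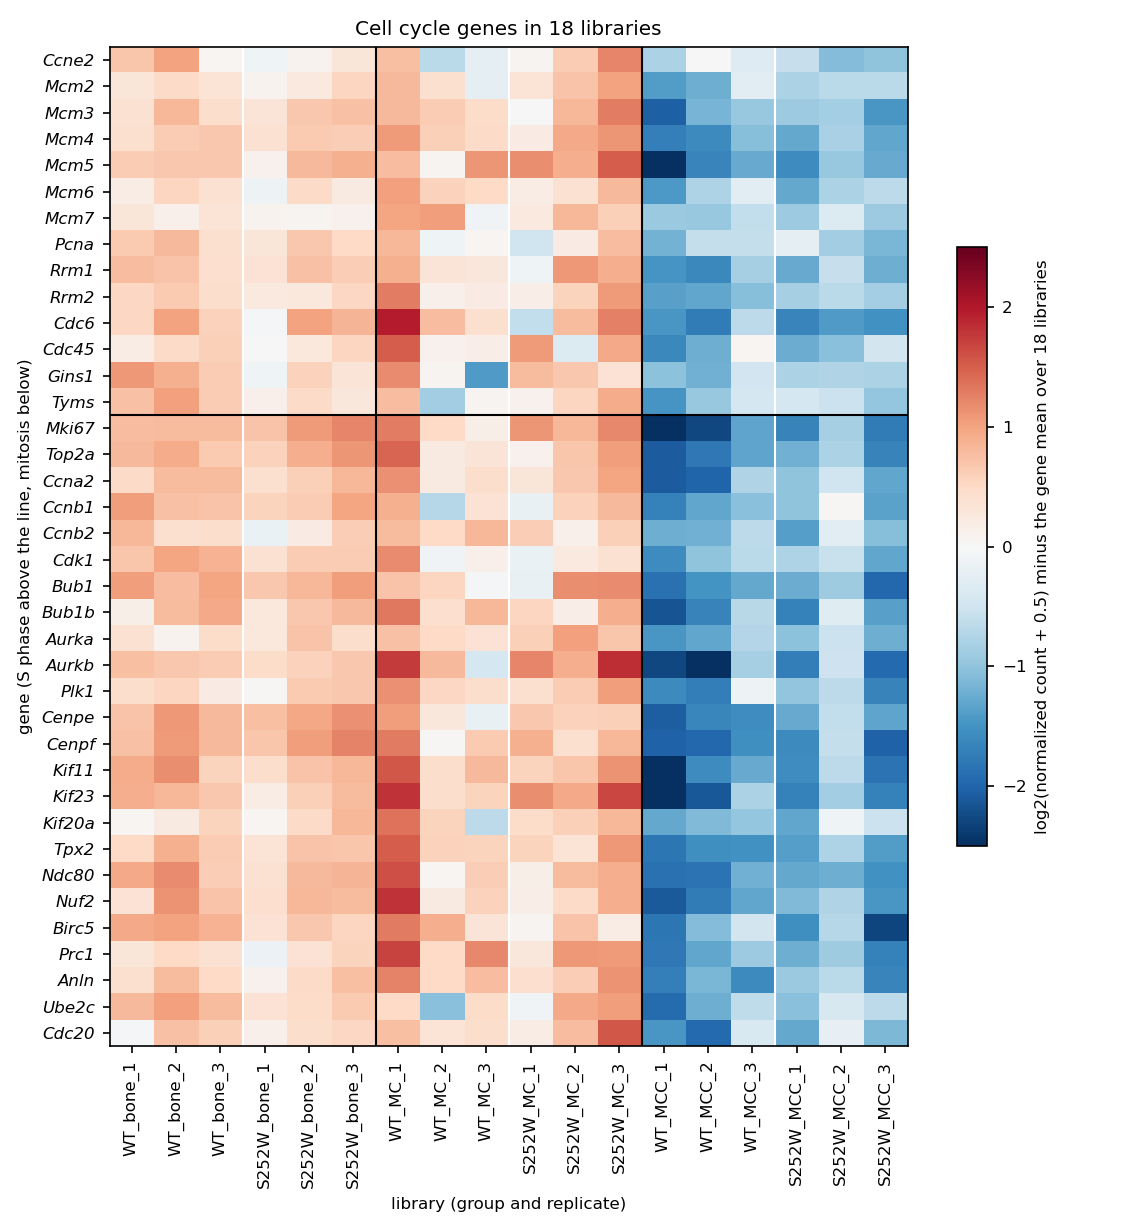
Levels of the 38 cell cycle genes (rows, S phase above the horizontal line and mitosis below) in the 18 libraries (columns, grouped by tissue and genotype). Colour gives log2(normalized count + 0.5) minus the mean of the gene over all libraries, with colours saturating at the ends of the scale. The 6 MCC libraries at the right are blue in nearly every row, and among the MC libraries *Fgfr2+/+* replicate 1 is the darkest red in many mitosis rows.

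The first question of the design was how the proliferative state differed between the tissues. Cell cycle genes were lower in MCC than in bone and in MC. In bone against MCC, 13 of 13 S phase genes and 24 of 24 mitosis genes that passed the filter were higher in bone at an adjusted p below 0.05 (limma-voom with the embryo as a block), where 24.3% of all 11469 genes tested were higher. The median log2 difference was 1.44 for S phase and 2.01 for mitosis genes, against -0.0027 for all genes. In MCC against MC, 13 of 13 and 24 of 24 were lower in MCC, where 27.8% of all genes were lower, with medians of -1.60 and -2.09. Both comparisons used the same MCC libraries and are not independent. All 6 embryos had higher normalized counts in bone than in MCC for each of the 37 genes. The 6 bone libraries lay above the 6 MCC libraries without overlap for 35 of the 37 genes (16.4% of all genes), the exceptions being *Ccne2* and *Cdc45*. In whole tissue, fewer cycling cells and less of these RNAs per cycling cell cannot be told apart.

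Genes of origin licensing and the replicative helicase carried this difference with a wide range of sizes. *Mcm2* (ENSMUSG00000002870, chr6:88883475-88898780 in mm10) encodes a subunit of the MCM helicase. In replicates 1, 2 and 3 its normalized counts were 22.3, 25.2 and 22.9 in *Fgfr2+/+* and 19.2, 21.5 and 26.3 in *Fgfr2+/S252W* bone. They were 32, 23.9 and 15.4 in *Fgfr2+/+* and 22.8, 29.7 and 36.6 in *Fgfr2+/S252W* MC. In MCC they were 6.54, 7.39 and 14.9 in *Fgfr2+/+* and 10.2, 11.2 and 11 in *Fgfr2+/S252W*. Every MCC library lay below every bone and MC library. The log2 difference was 1.21 (SE 0.21, adjusted p = 0.00014) for bone minus MCC and -1.42 (SE 0.23, adjusted p = 5.17e-05) for MCC minus MC.

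*Mcm5* (ENSMUSG00000005410, chr8:75109528-75128439), another subunit of the same ring, gave the largest difference of the 13 tested S phase genes in both comparisons. Its normalized counts were 15.9, 16.2 and 16.1 in *Fgfr2+/+* and 10.7, 17.8 and 18.8 in *Fgfr2+/S252W* bone. In MC they were 17.4, 10.5 and 22.1 in *Fgfr2+/+* and 22.8, 19.1 and 29.6 in *Fgfr2+/S252W*. MCC libraries had 1.2, 2.82 and 3.88 in *Fgfr2+/+* and 3.01, 4.9 and 3.85 in *Fgfr2+/S252W*. The highest MCC library stayed below the lowest library of either other tissue. Bone exceeded MCC by 2.33 on the log2 scale (SE 0.29, 5.01-fold, adjusted p = 3.37e-06), and MCC minus MC was -2.67 (SE 0.30, adjusted p = 1.05e-06). Of the remaining ring subunits *Mcm4* had the smallest p of the S phase genes, with log2 differences of 1.90 (SE 0.19, adjusted p = 3.37e-07) for bone minus MCC and -2.10 (SE 0.20, adjusted p = 1.57e-07) for MCC minus MC. *Mcm3*, *Mcm6* and *Mcm7* were higher in bone than in MCC by 1.83, 1.18 and 0.97, so the 6 subunits of 1 complex ranged from 0.97 to 2.33. Fragments in exons that 2 genes share were not counted, and *Mcm7* shares 8.71% of its exon length with *Ap4m1* and 1.74% with *Cops6*, both on the opposite strand.

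*Cdc45* and *Gins1*, which join the ring to form the active helicase, were low, and their spread was wide. *Cdc45* differed by 1.44 (SE 0.36, adjusted p = 0.00338) between bone and MCC and *Gins1* by 1.78 (SE 0.37, adjusted p = 0.000796). For *Cdc6*, which was not tested in the filtered table, normalized counts were 4.75, 6.82 and 4.91 in *Fgfr2+/+* and 3.02, 6.83 and 6.05 in *Fgfr2+/S252W* bone. In MC they were 13.7, 5.74 and 4.31 in *Fgfr2+/+* and 1.87, 5.85 and 8.23 in *Fgfr2+/S252W*. MCC libraries had 0.827, 0.582 and 1.8 in *Fgfr2+/+* and 0.669, 0.86 and 0.77 in *Fgfr2+/S252W*, each below all bone and MC libraries. With no filter on low values, 14 of 14 S phase genes including *Cdc6* were called higher in bone than in MCC (16.4% of all genes then tested) and lower in MCC than in MC (23.1%).

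*Pcna* (ENSMUSG00000027342, chr2:132249162-132253314) had normalized counts of 58.6, 65.1 and 49.2 in *Fgfr2+/+* and 46, 59.7 and 52.4 in *Fgfr2+/S252W* bone. In MC they were 65.7, 34.4 and 38.4 in *Fgfr2+/+* and 26.1, 42.6 and 63.9 in *Fgfr2+/S252W*. In MCC they were 15.9, 24.3 and 24.5 in *Fgfr2+/+* and 31.1, 20.1 and 16.5 in *Fgfr2+/S252W*. MCC lay below bone without overlap, while the lowest MC library, *Fgfr2+/S252W* replicate 1, fell within the MCC range. Bone minus MCC was 1.33 (SE 0.22, adjusted p = 7.23e-05), and MCC minus MC was -1.01 (SE 0.24, adjusted p = 0.0017), the smallest MCC to MC difference of the 37 genes. It was -0.76 (adjusted p = 0.0117) without the *Fgfr2+/+* MC library of replicate 1, -1.18 (adjusted p = 0.00076) without the *Fgfr2+/S252W* one and -0.95 (adjusted p = 0.00257) without both. The files also list the pseudogenes *Pcna-ps1* and *Pcna-ps2*, and fragments that mapped to more than 1 place were not counted, so the *Pcna* level is uncertain.

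The enzymes that supply deoxynucleotides were lower in MCC as well. *Rrm2* (ENSMUSG00000020649, chr12:24708241-24714146), the subunit of ribonucleotide reductase made in S phase, had 30.0, 33.3 and 28.6 in *Fgfr2+/+* and 24.7, 25.2 and 30.2 in *Fgfr2+/S252W* bone. Its normalized counts in MC were 51.4, 23 and 24 in *Fgfr2+/+* and 23.5, 31.1 and 44.1 in *Fgfr2+/S252W*. MCC libraries had 7.82, 8.22 and 9.66 in *Fgfr2+/+* and 11.4, 12.8 and 11.4 in *Fgfr2+/S252W*. The 6 MCC values were all below the lowest bone or MC value, and the MC values spread widest. The log2 difference of *Rrm2* was 1.5 (SE 0.20, adjusted p = 9.81e-06) for bone minus MCC and -1.68 (SE 0.22, adjusted p = 4.5e-06) for MCC minus MC. The partner subunit *Rrm1*, with 1.78 (SE 0.18, adjusted p = 3.75e-07) and -1.77 (SE 0.19, adjusted p = 6.75e-07), and thymidylate synthase *Tyms*, with 1.37 (SE 0.24, adjusted p = 0.000146) and -1.15 (SE 0.28, adjusted p = 0.00195), followed the same order.

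*Ccne2* (ENSMUSG00000028212, chr4:11191354-11204779), the cyclin E2 that drives S phase entry, separated the tissues least cleanly. Its normalized counts were 11.6, 14.5 and 7.23 in *Fgfr2+/+* and 6.45, 7.49 and 8.72 in *Fgfr2+/S252W* bone. In MC they were 12.2, 4.21 and 5.81 in *Fgfr2+/+* and 7.35, 11 and 17 in *Fgfr2+/S252W*, and in MCC 3.83, 6.9 and 5.5 in *Fgfr2+/+* and 4.49, 3.01 and 3.21 in *Fgfr2+/S252W*. The tissues overlapped in both comparisons. *Ccne2* was 1.05 (SE 0.26, adjusted p = 0.00275) for bone minus MCC and -1.08 (SE 0.31, adjusted p = 0.00701) for MCC minus MC. Without the *Fgfr2+/+* MC library of replicate 1, 11 of 13 S phase genes were called lower in MCC than in MC (27.1% of all genes were). *Ccne2* then stood at -0.70 (adjusted p = 0.0883) and *Gins1* at -1.08 (adjusted p = 0.0711), while the 24 mitosis genes stayed called.

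**Figure D2:**
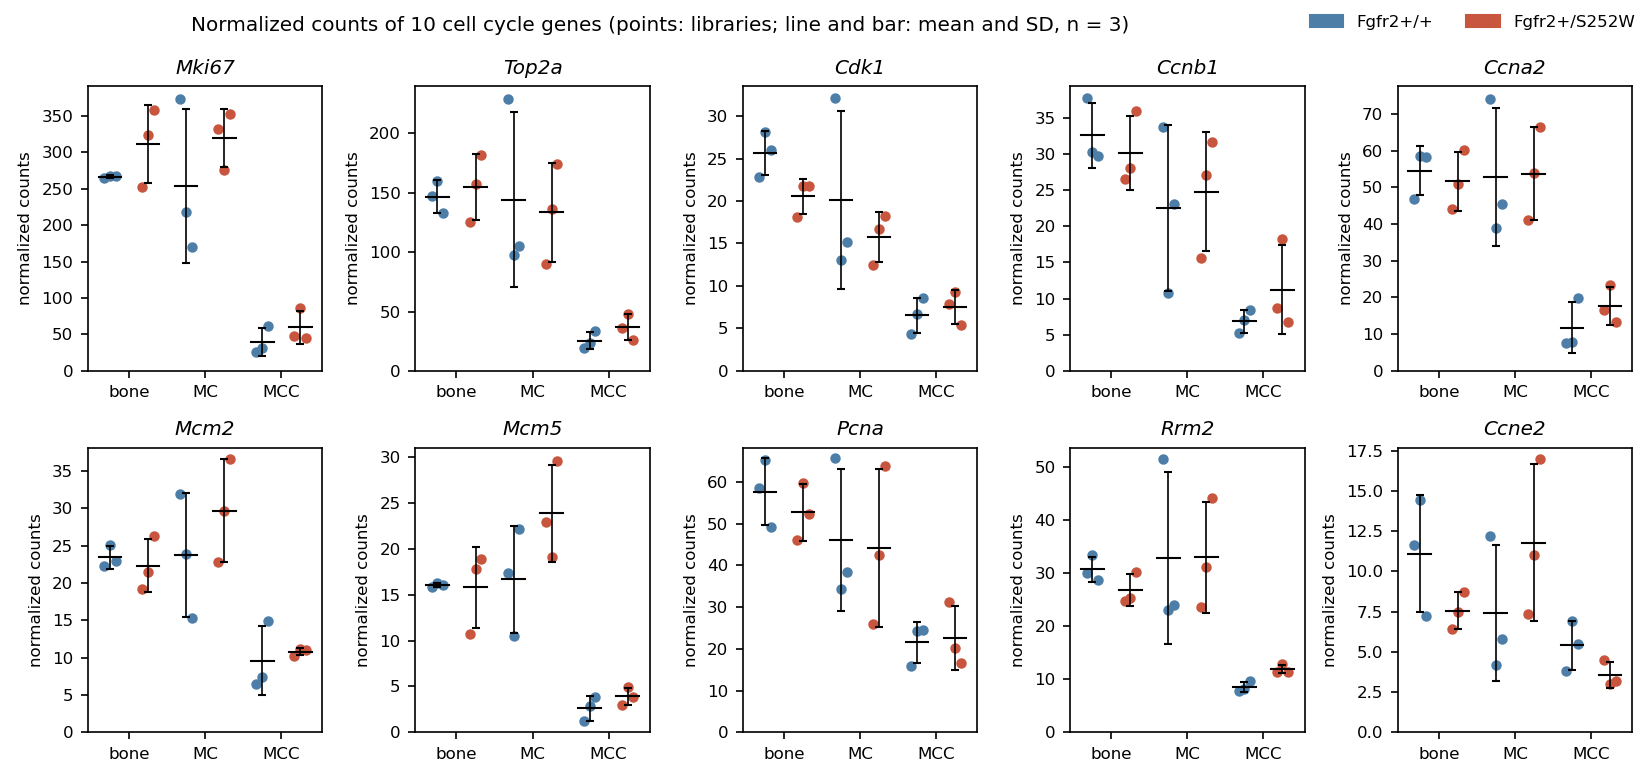
Normalized counts (vertical axes, linear from 0) of 10 cell cycle genes by tissue, with a point for each library, a line at the mean and a bar for the SD of 3 libraries, *Fgfr2+/+* in blue and *Fgfr2+/S252W* in red. The MCC means are the lowest in each panel, and most of the long bars are in MC.

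The mitosis genes had the larger median difference in both MCC comparisons. *Mki67* (ENSMUSG00000031004, chr7:135689788-135716379) had normalized counts of 264, 268 and 268 in *Fgfr2+/+* and 253, 324 and 358 in *Fgfr2+/S252W* bone. In MC they were 373, 218 and 170.2 in *Fgfr2+/+* and 331, 275 and 353 in *Fgfr2+/S252W*. In MCC they were 25.5, 31.4 and 61.3 in *Fgfr2+/+* and 47.7, 86.2 and 45.2 in *Fgfr2+/S252W*. No MCC library exceeded 86.2, and none of the other 12 libraries fell below 170.2. *Mki67* had the smallest p of the 37 genes in both MCC comparisons, at 2.64 for bone minus MCC (SE 0.22, 95% interval 2.17 to 3.11, 6.24-fold, adjusted p = 4.11e-08) and -2.60 (SE 0.23, adjusted p = 5.7e-08) for MCC minus MC.

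*Top2a* (ENSMUSG00000020914, chr11:98992943-99024189) followed the same order. Bone had normalized counts of 147, 160.1 and 133 in *Fgfr2+/+* and 126, 157 and 182 in *Fgfr2+/S252W*. MC had 229, 97.9 and 105 in *Fgfr2+/+* and 90.1, 136 and 174 in *Fgfr2+/S252W*. MCC had 19.5, 23.8 and 33.5 in *Fgfr2+/+* and 36.2, 48 and 26 in *Fgfr2+/S252W*. The MC library of *Fgfr2+/+* replicate 1 was the highest of the 18, and the MCC libraries were the 6 lowest. *Top2a* was 4.99-fold higher in bone than in MCC (log2 difference 2.32 (SE 0.22, adjusted p = 1.48e-07)) and -2.15 (SE 0.23, adjusted p = 4.37e-07) on the log2 scale for MCC minus MC.

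The cyclins and their kinase, which carry cells from late S phase into mitosis, came next. *Ccna2* (cyclin A2, ENSMUSG00000027715, chr3:36564866-36572150) had 46.8, 58.5 and 58.2 in *Fgfr2+/+* and 44.1, 50.9 and 60.1 in *Fgfr2+/S252W* bone. In MC its normalized counts were 74.1, 39 and 45.4 in *Fgfr2+/+* and 41.2, 53.8 and 66.3 in *Fgfr2+/S252W*, and in MCC 7.51, 7.98 and 19.8 in *Fgfr2+/+* and 16.5, 23.4 and 13.2 in *Fgfr2+/S252W*. The MCC values ended at 23.4, below the lowest MC value of 39.0. *Ccna2* gave 1.93 (SE 0.23, adjusted p = 2.58e-06) for bone minus MCC and -1.93 (SE 0.24, adjusted p = 3.48e-06) for MCC minus MC, with 17.3% of its exon length shared with *Exosc9* on the opposite strand and not counted.

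*Ccnb1* (cyclin B1, ENSMUSG00000041431, chr13:100778650-100786570) had 37.7, 30.2 and 29.6 in *Fgfr2+/+* and 26.5, 28 and 36 in *Fgfr2+/S252W* bone. Its normalized counts in MC were 33.7, 10.7 and 23.1 in *Fgfr2+/+* and 15.6, 27 and 31.7 in *Fgfr2+/S252W*, and in MCC 5.19, 6.98 and 8.39 in *Fgfr2+/+* and 8.64, 18.2 and 6.8 in *Fgfr2+/S252W*. The *Fgfr2+/S252W* MCC library of replicate 2, at 18.2, rose above the 2 lowest MC libraries, so MC and MCC overlapped. *Ccnb1* gave 1.87 (SE 0.26, adjusted p = 1.21e-05) for bone minus MCC and -1.44 (SE 0.29, adjusted p = 0.000383) for MCC minus MC. A pseudogene, *Ccnb1-ps*, is listed in the files, as is *Ccnb2-ps* for *Ccnb2*, so both cyclin levels are uncertain.

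*Cdk1* (ENSMUSG00000019942, chr10:69336635-69352938), the kinase that the B cyclins activate, had 22.9, 28.1 and 26 in *Fgfr2+/+* and 18.2, 21.8 and 21.7 in *Fgfr2+/S252W* bone. Its normalized counts in MC were 32.1, 13 and 15.2 in *Fgfr2+/+* and 12.4, 16.7 and 18.2 in *Fgfr2+/S252W*, and in MCC 4.36, 6.65 and 8.57 in *Fgfr2+/+* and 7.9, 9.28 and 5.39 in *Fgfr2+/S252W*. MCC stayed below both tissues without overlap. The differences were 1.72 (SE 0.24, adjusted p = 1.21e-05) for bone minus MCC and -1.36 (SE 0.26, adjusted p = 0.000308) for MCC minus MC, the smallest MCC to MC difference among the mitosis genes.

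Kinetochore and spindle genes ranged widely in the size of the difference. *Cenpe*, the kinesin that carries chromosomes to the metaphase plate, had 56.1, 72.4 and 59.8 in *Fgfr2+/+* and 57.7, 66.9 and 75.9 in *Fgfr2+/S252W* bone. In MC its normalized counts were 71, 41.7 and 30.0 in *Fgfr2+/+* and 54.4, 51.3 and 51.6 in *Fgfr2+/S252W*, and in MCC 7.82, 10.7 and 11.3 in *Fgfr2+/+* and 13.9, 22.1 and 13.3 in *Fgfr2+/S252W*. All MCC values were below 30.0, the lowest MC value. *Cenpe* gave 2.36 (SE 0.21, adjusted p = 7.84e-08) for bone minus MCC. *Tpx2*, which activates the Aurora A kinase on the spindle, gave -2.26 (SE 0.23, adjusted p = 2.41e-07) for MCC minus MC, and *Prc1*, which bundles microtubules at the midzone, gave -2.34 (SE 0.23, adjusted p = 2.46e-07). The remaining kinetochore genes *Cenpf*, *Ndc80* and *Nuf2* were higher in bone than in MCC by 2.57, 2.48 and 2.32, and the checkpoint kinases *Bub1* and *Bub1b* by 2.43 and 1.95. The mitotic kinesins *Kif11* and *Kif23* differed by 2.42 and 2.57. *Kif20a*, for which 33.2% of the exon length overlaps *Cdc23* on the opposite strand, differed by 1.36, the smallest value of the mitosis genes.

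Among the mitotic kinases, *Aurkb* differed by 2.46 between bone and MCC, *Aurka* by 1.55 and *Plk1* by 1.56. *Birc5*, the survivin subunit that places Aurora B at the centromere, differed by 2.14, and *Anln*, a scaffold of the contractile ring, by 1.80. The genes that end mitosis, *Ube2c* and *Cdc20* of the anaphase-promoting pathway, differed by 1.68 and 1.51. *Ube2c* shares 22.8% of its exon length with *Tnnc2*, a muscle gene on the opposite strand. MCC libraries lay wholly below MC libraries for 8 of 13 S phase and 21 of 24 mitosis genes (14.1% of all genes).

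**Figure D3:**
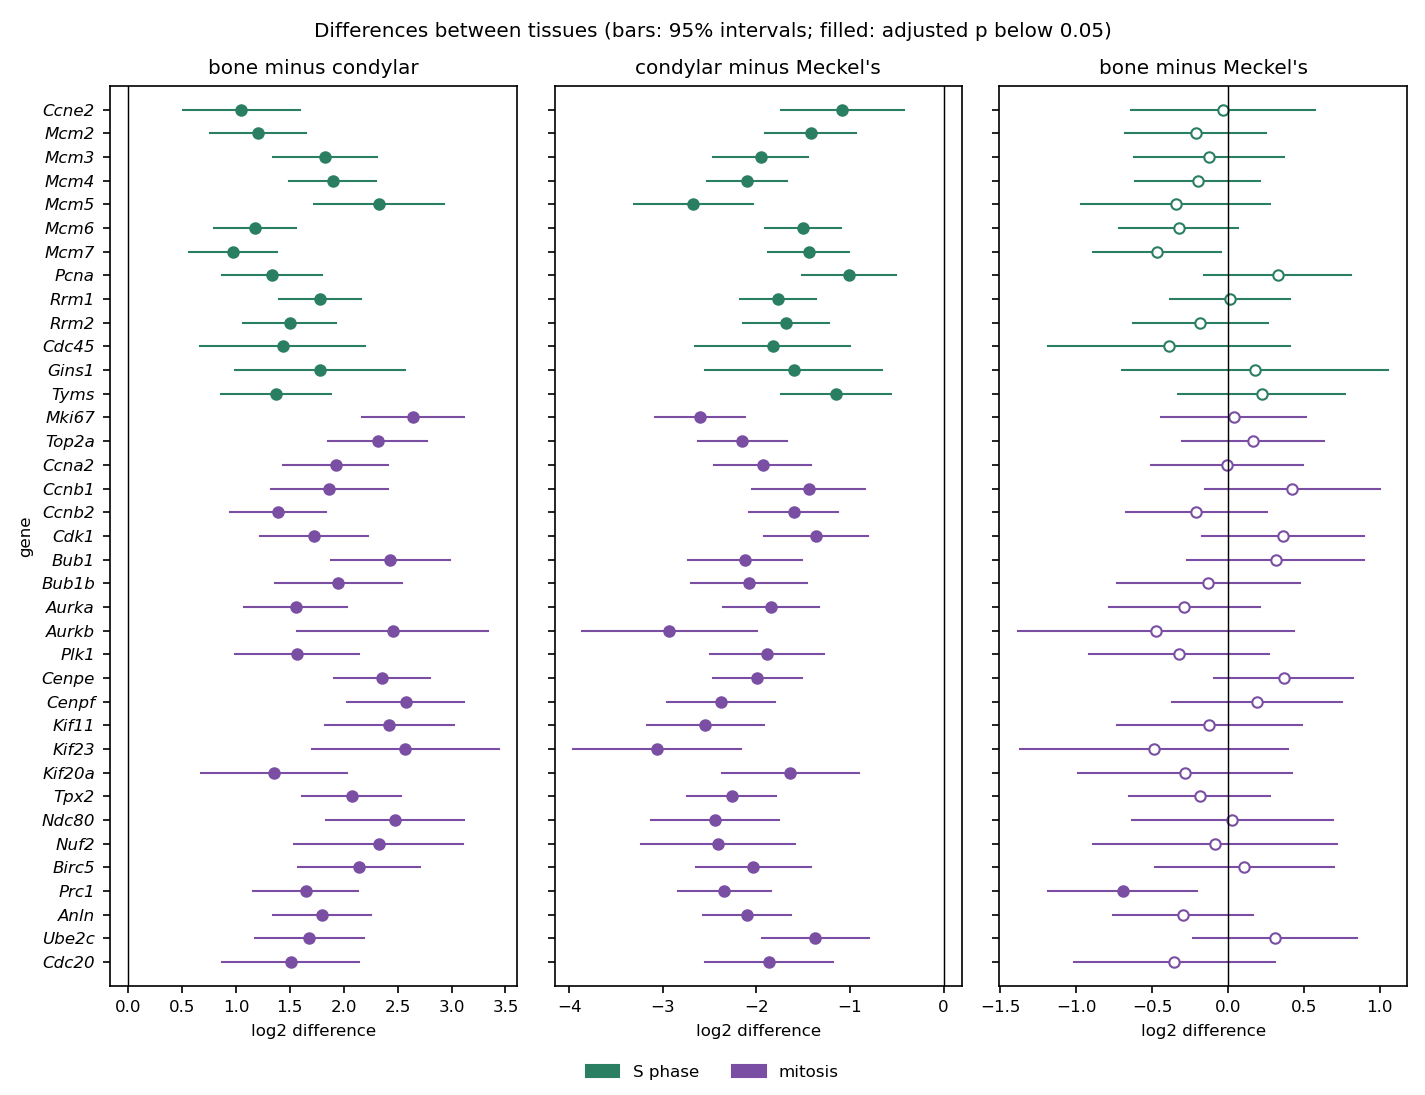
Log2 differences of 37 cell cycle genes between tissues (horizontal axes) with 95% intervals, S phase in green and mitosis in purple, filled where the adjusted p is below 0.05. Each point lies right of 0 for bone minus MCC and left of 0 for MCC minus MC, and for bone minus MC *Prc1* is the single filled point, at -0.70.

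Few of these genes were called between bone and MC. By limma-voom 0 of 13 S phase genes and 1 of 24 mitosis genes passed the test, where 50% of all genes tested did, and 2 of 37 had an unadjusted p below 0.05, where 55.6% of all genes did. *Prc1* had normalized counts of 26, 29.6 and 27.4 in *Fgfr2+/+* and 18.7, 27 and 30.7 in *Fgfr2+/S252W* bone and 68.4, 29.7 and 48.4 in *Fgfr2+/+* and 25.7, 45 and 44.1 in *Fgfr2+/S252W* MC. It was lower in bone in 6 of 6 embryos, although the libraries of the 2 tissues overlapped. Bone minus MC was -0.70 (SE 0.23, adjusted p = 0.0195) for *Prc1*. The next smallest p values were for *Mcm7* (-0.47 (SE 0.20, adjusted p = 0.0597)) and *Mcm6* (-0.33 (SE 0.19, adjusted p = 0.158)) among S phase genes and for *Cenpe* (0.37 (SE 0.22, adjusted p = 0.174)) among mitosis genes. *Ccnb1*, at 0.42 (SE 0.27, adjusted p = 0.208), had higher counts in bone in 6 of 6 embryos and did not pass the test. The 95% interval of the difference lay within 1 log2 unit of 0 in both directions for 30 of 37 genes, for *Mki67* from -0.44 to 0.52. Median differences were -0.18 for S phase and -0.10 for mitosis genes.

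The calls between bone and MC changed with single libraries. Without the *Fgfr2+/+* MC library of replicate 1, *Prc1* stood at -0.47 (adjusted p = 0.0654), and *Cenpe*, at 0.63 (adjusted p = 0.00739), and *Cdk1*, at 0.70 (adjusted p = 0.0113), were higher in bone. Leaving out the MC libraries of replicate 1 of both genotypes gave the last 2 genes again, *Cenpe* at 0.70 (adjusted p = 0.00688) and *Cdk1* at 0.64 (adjusted p = 0.0346). *Prc1* was also past the threshold no longer without the *Fgfr2+/S252W* bone library of replicate 2 (adjusted p = 0.0564) or the *Fgfr2+/S252W* MC libraries of replicate 2 (adjusted p = 0.0526) or 3 (adjusted p = 0.0512). *Mcm7* was lower in bone without the *Fgfr2+/+* libraries of replicate 3 of bone (adjusted p = 0.0351), MC (adjusted p = 0.00359) or MCC (adjusted p = 0.0497). The *Fgfr2+/+* MC library of replicate 1 had the lowest chondrocyte sum of the MC libraries, 664, and the highest sums of osteoblast genes, 6433 against 2944 to 5098, and of the hypertrophic list, which shares genes with it, 802 against 139 to 246. Their part in the result was not tested.

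The summed levels of S phase and mitosis genes were also set against each other. The 24 mitosis genes summed to 883 to 1232 normalized counts in bone, 793 to 1544 in MC and 139 to 393 in MCC. The 14 S phase genes summed to 277 to 395 in bone, 268 to 481 in MC and 86.5 to 154 in MCC. The ratio of the S phase sum to the mitosis sum was 0.279 to 0.346 in bone, 0.281 to 0.383 in MC and 0.367 to 0.624 in MCC. These sums weight long and abundant genes such as *Mki67* most. With FPKM in place of normalized counts the ratio was 0.476 to 0.571 in bone, 0.473 to 0.591 in MC and 0.543 to 0.988 in MCC. The difference of the median log2 level of the S phase genes from that of the mitosis genes was -0.16 to 0.17 in bone, -0.14 to 0.42 in MC and 0.06 to 0.58 in MCC. Bone and MCC thus did not overlap in the first ratio and overlapped in the other measures, in both of which the *Fgfr2+/S252W* MCC library of replicate 2 was the lowest of the MCC libraries. Between genotypes the order of the bone libraries depended on the measure. The ratio of normalized counts was 0.342, 0.346 and 0.326 in *Fgfr2+/+* and 0.314, 0.320 and 0.279 in *Fgfr2+/S252W* bone, without overlap. The FPKM ratio was 0.559, 0.571 and 0.528 against 0.537, 0.553 and 0.476, which overlapped, and the difference of medians was higher in *Fgfr2+/S252W* (median 0.06) than in *Fgfr2+/+* (median -0.15), also with overlap. No test was made of these measures, which are scores over the listed genes.

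**Figure D4:**
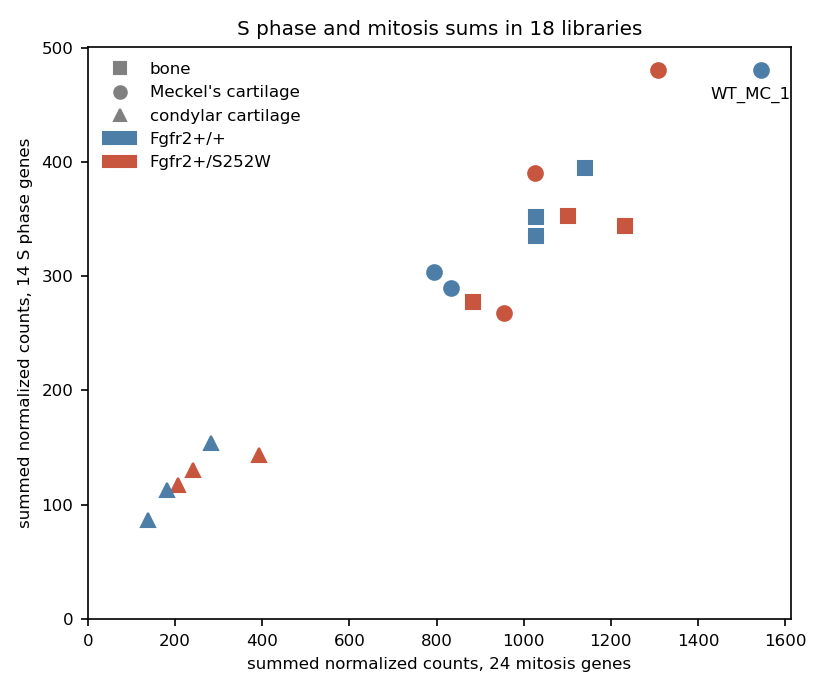
Summed normalized counts of the 14 S phase genes (vertical axis) against those of the 24 mitosis genes (horizontal axis) in each of the 18 libraries, by tissue (shape) and genotype (colour). The MCC libraries form a group at the lower left, at 139 to 393 on the mitosis axis, bone and MC libraries share the upper range, and the *Fgfr2+/+* MC library of replicate 1 lies farthest right.

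Other cells moved with the tissues too. The 10 macrophage genes summed to 229 to 342 in bone, 62.1 to 170 in MC and 6.76 to 19.0 in MCC, where 1 to 3 of them were at 0 in a library, most often *C1qa* and *Adgre1*. The members differed in direction between bone and MC: *Csf1r*, *Cd68* and *Tyrobp* were higher in bone, and *C1qb* (-2.57 (SE 0.61, adjusted p = 0.00209)) and *C1qc* (-3.25 (SE 0.84, adjusted p = 0.00392)) lower, where 25.8% of all genes were higher and 24.2% lower. *Lyz2* gave 2.98 for bone minus MC in *Fgfr2+/+* (adjusted p = 0.00248) and -0.38 in *Fgfr2+/S252W* (adjusted p = 0.658). The 8 endothelial genes summed to 236 to 317 in bone, 39 to 116 in MC and 14 to 38.4 in MCC. Erythroid genes, 10 in the list, summed to 324 to 1533 in bone, 108 to 479 in MC and 33.2 to 226 in MCC, with *Hbb-bh1* at 0 in all MC and MCC libraries. The list of 7 hypertrophic chondrocyte genes shares *Ibsp* and *Sp7* with the osteoblast list, so its sum does not separate these cells. It was 6917 to 15482 in MCC, 4735 to 8697 in bone and 139 to 802 in MC, with *Ihh* at 0 in every MC library. *Col10a1*, the collagen of hypertrophic cartilage, was -10.06 (SE 0.37, adjusted p = 2.78e-12) for bone minus MCC and -0.64 (SE 0.37, adjusted p = 0.164) for bone minus MC, while *Ibsp* was 0.50 (SE 0.44, adjusted p = 0.375) and 8.42 (SE 0.56, adjusted p = 9.98e-09). Fibroblast and perichondrium genes also differed in direction. By limma-voom in *Fgfr2+/S252W*, MCC minus MC was -7.21 for *Aspn* (adjusted p = 2.74e-06) and -2.61 for *Pdgfra* (2.29e-05). It was -1.66 for *Twist1* (0.00892), -1.52 for *Postn* (0.00025), -0.31 for *Dcn* (0.494) and 0.78 for *Lum* (0.000427). In that comparison 20.4% of all genes were lower in MCC. The part of these cells in the tissue differences was not tested.

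The rest of the cell cycle followed the same order with more exceptions. For bone against MCC 24.3% of all genes were higher and 22.7% lower in bone, and for MCC against MC 27.8% were lower and 27.4% higher in MCC. Of 62 other mitosis genes tested, 58 were higher and 0 lower in bone than in MCC (median 1.66), led by the kinetochore scaffold *Knl1* (2.58 (SE 0.23, adjusted p = 9.44e-08)), *Hmmr* (2.02 (SE 0.22, adjusted p = 6.55e-07)) and the condensin subunit *Smc2* (2.25 (SE 0.25, adjusted p = 8.44e-07)). In MCC against MC 56 of 62 were lower and 0 higher (median -2.06), among them *Foxm1*, the transcription factor of the mitotic programme (-2.69 (SE 0.23, adjusted p = 3.17e-08)), *Ncapd2* (-2.03 (SE 0.19, adjusted p = 8.33e-08)) and *Incenp* (-2.22 (SE 0.21, adjusted p = 1.54e-07)). Other replication genes were higher in bone than in MCC for 36 of 46 and lower for 0 (median 1.11), with DNA ligase 1, *Lig1* (2.16 (SE 0.23, adjusted p = 5.92e-07)), the maintenance methyltransferase *Dnmt1* (1.27 (SE 0.14, adjusted p = 1.04e-06)) and the primase-polymerase subunit *Pola1* (2.16 (SE 0.25, adjusted p = 1.79e-06)) at the smallest p. Against MC 34 of 46 were lower and 2 higher in MCC (median -1.33). The 2 higher genes were *Orc3* (0.55 (SE 0.14, adjusted p = 0.0033)) and *Rpa3* (1.01 (SE 0.29, adjusted p = 0.0064)), of the origin recognition complex and of the protein that coats single-stranded DNA. Without the *Fgfr2+/+* MC library of replicate 1, 50 of 62 other mitosis and 30 of 46 other replication genes were lower in MCC than in MC (27.1% of all genes), and without the *Fgfr2+/S252W* one 56 and 32 were (23.9% of all genes).

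G1 regulators split by gene. Of 19 tested, 10 were higher and 1 lower in bone than in MCC (median 0.55), where 24.3% of all genes were higher and 22.7% lower, and 16 were lower and 1 higher in MCC than in MC (median -1.26), where 27.8% of all genes were lower and 27.4% higher. *Ccnd2*, a D cyclin that opens the way through G1, had 283 to 375 normalized counts in bone, 300.4 to 494 in MC and 62.1 to 116 in MCC. *Ccnd2* differed by 1.73 (SE 0.13, adjusted p = 6.58e-09) for bone minus MCC and -2.14 (SE 0.13, adjusted p = 7.03e-10) for MCC minus MC. *Cdk6*, a partner kinase of the D cyclins, went the other way, with 65.5 to 105 in MCC against 21.3 to 29.7 in bone and 21.4 to 45.0 in MC. Bone minus MCC was -1.66 (SE 0.16, adjusted p = 1.66e-07) and MCC minus MC 1.18 (SE 0.16, adjusted p = 8.98e-06) for *Cdk6*. *E2f7*, a repressor of the E2F family that E2F itself turns on, and *Tfdp2*, an E2F partner, were higher in bone than in MCC by 2.38 and 1.51 and lower in MCC than in MC by 3.01 and 1.66 on the log2 scale.

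Inhibitors of the cycle did not share 1 direction. Of 13 tested, 5 were lower and 2 higher in bone than in MCC, against 22.7% and 24.3% of all genes, and 5 were higher and 3 lower in MCC than in MC, against 27.4% and 27.8% of all genes. The 2 of 13 and the 3 of 13 lie below the shares of all genes. *Cdkn1c* (ENSMUSG00000037664, chr7:143458350-143461050), the p57 inhibitor of cyclin-dependent kinases, spanned 1472 to 2113 normalized counts in MCC, 427 to 628 in MC and 148 to 333 in bone, without overlap. *Cdkn1c* was -2.88 (SE 0.11, adjusted p = 3.12e-12) for bone minus MCC and 1.74 (SE 0.11, adjusted p = 1.05e-09) for MCC minus MC. *Cdkn1a*, the p21 inhibitor, spanned 199 to 284 in MCC, 153 to 205 in bone and 26.3 to 37.3 in MC. It gave -0.48 (SE 0.10, adjusted p = 0.000748) for bone minus MCC, 2.89 (SE 0.13, adjusted p = 3.52e-11) for MCC minus MC and 2.41 (SE 0.12, adjusted p = 5.48e-10) for bone minus MC. Bone and MC, between which few of the S phase and mitosis members were called, thus differed 5.31-fold in *Cdkn1a*. *Cdkn2c*, the p18 inhibitor, moved with the cycling genes, at 2.03 (SE 0.33, adjusted p = 6.26e-05) for bone minus MCC and -2.88 (SE 0.33, adjusted p = 1.29e-06) for MCC minus MC. *Ccng1*, a target of p53, was lower in bone than in MCC by 0.75 and higher in MCC than in MC by 2.19 on the log2 scale. *Trp53* itself was 0.40 (SE 0.13, adjusted p = 0.0162) for bone minus MCC and -1.10 (SE 0.13, adjusted p = 2.54e-06) for MCC minus MC, and *Gadd45a* was -1.61 (SE 0.35, adjusted p = 0.000839) in the latter.

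Between bone and MC 25.8% of all genes tested were higher and 24.2% lower in bone. G1 regulators had 1 gene higher and 9 lower in bone of 19, other replication genes 4 and 15 of 46, other mitosis genes 2 and 8 of 62, and inhibitors 4 and 4 of 13. The total of 10 in 62 other mitosis genes and of 19 in 46 other replication genes lay below the 50% of all genes called. The totals of the other lists, 10 of 19 and 8 of 13, lay above it. By direction, the 9 of 19 G1 regulators and 15 of 46 other replication genes lower in bone lay above the 24.2% of all genes, and the 8 of 62 other mitosis genes below it. No test was made of these counts. Without the *Fgfr2+/+* MC library of replicate 1, other mitosis genes had 6 higher and 7 lower in bone and other replication genes 6 and 11 (27.0% and 24.8% of all genes). Without the *Fgfr2+/S252W* one they had 2 and 6, and 2 and 8 (22.3% and 19.5% of all genes). *Ccnd1*, cyclin D1, spanned 29.8 to 69.9 in bone and 51.3 to 137 in MC and was -1.17 (SE 0.19, adjusted p = 8.78e-05) for bone minus MC. *Foxm1* spanned 21.9 to 31.1 in bone and 45.9 to 60.1 in MC, a difference of -1.06 (SE 0.22, adjusted p = 0.000903). *Pold1*, the catalytic subunit of polymerase delta, gave -1.40 (SE 0.29, adjusted p = 0.000702), *Pola2* -1.17 (SE 0.22, adjusted p = 0.000362) and *Rfc5* -1.02 (SE 0.21, adjusted p = 0.000661). *Cdc25b*, a phosphatase that activates Cdk1, gave -1.51 (SE 0.29, adjusted p = 0.00035) and *Ncapd2* -0.98 (SE 0.18, adjusted p = 0.000318). In the other direction *Smc4*, a condensin subunit, gave 1.12 (SE 0.17, adjusted p = 5.71e-05), *Hmgb2* 0.71 (SE 0.28, adjusted p = 0.0435) and *Tipin* 0.76 (SE 0.19, adjusted p = 0.00272).

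The tissue differences were present in each genotype. In *Fgfr2+/+* 13 of 13 S phase and 24 of 24 mitosis genes were higher in bone than in MCC (18.4% of all genes), with medians of 1.81 and 2.31. In *Fgfr2+/S252W* 10 of 13 and 23 of 24 were (15.4% of all genes), with medians of 1.22 and 1.74. MCC was below MC for 11 of 13 and 24 of 24 genes in *Fgfr2+/+* (21.8% of all genes) and 12 of 13 and 24 of 24 in *Fgfr2+/S252W* (20.4% of all genes). Between bone and MC 0 of 37 were called in either genotype, where 32.7% (*Fgfr2+/+*) and 36.2% (*Fgfr2+/S252W*) of all genes were called. An unadjusted p below 0.05 was found for 2 and 0 of 37 genes, against 42.8% and 45.3% of all genes. Without the *Fgfr2+/+* MC library of replicate 1, 4 genes were higher in bone than in MC in *Fgfr2+/+*, where 18.6% of all genes were. These were *Tyms* (1.28, adjusted p = 0.0138), *Cenpe* (0.93, adjusted p = 0.0146), *Ube2c* (1.20, adjusted p = 0.0227) and *Cdk1* (0.99, adjusted p = 0.0257), each named after its value was seen. In that fit 8 of 13 S phase and 22 of 24 mitosis genes were lower in MCC than in MC in *Fgfr2+/+* (20.5% of all genes). Without the *Fgfr2+/S252W* MC library of replicate 1, 11 of 13 and 22 of 24 were in *Fgfr2+/S252W* (14.4% of all genes). Between *Fgfr2+/S252W* bone and MC 0 of 37 were called without that library, where 36.2% of all genes were called with it included.

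The second question was whether the mutation changed the proliferative state of any tissue at E16.5. By limma-voom 0 of the 37 genes passed the test in bone, MC or MCC, and edgeR's quasi-likelihood test and DESeq2 also called 0 in each tissue. By limma-voom 0.0872% of all genes were called in bone and 0% in MC and in MCC. A count of 0 was thus close to the share of all genes and does not show that the cell cycle was unchanged. The intervals, and the order of the libraries, differed between the tissues and are given for each.

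**Figure D5:**
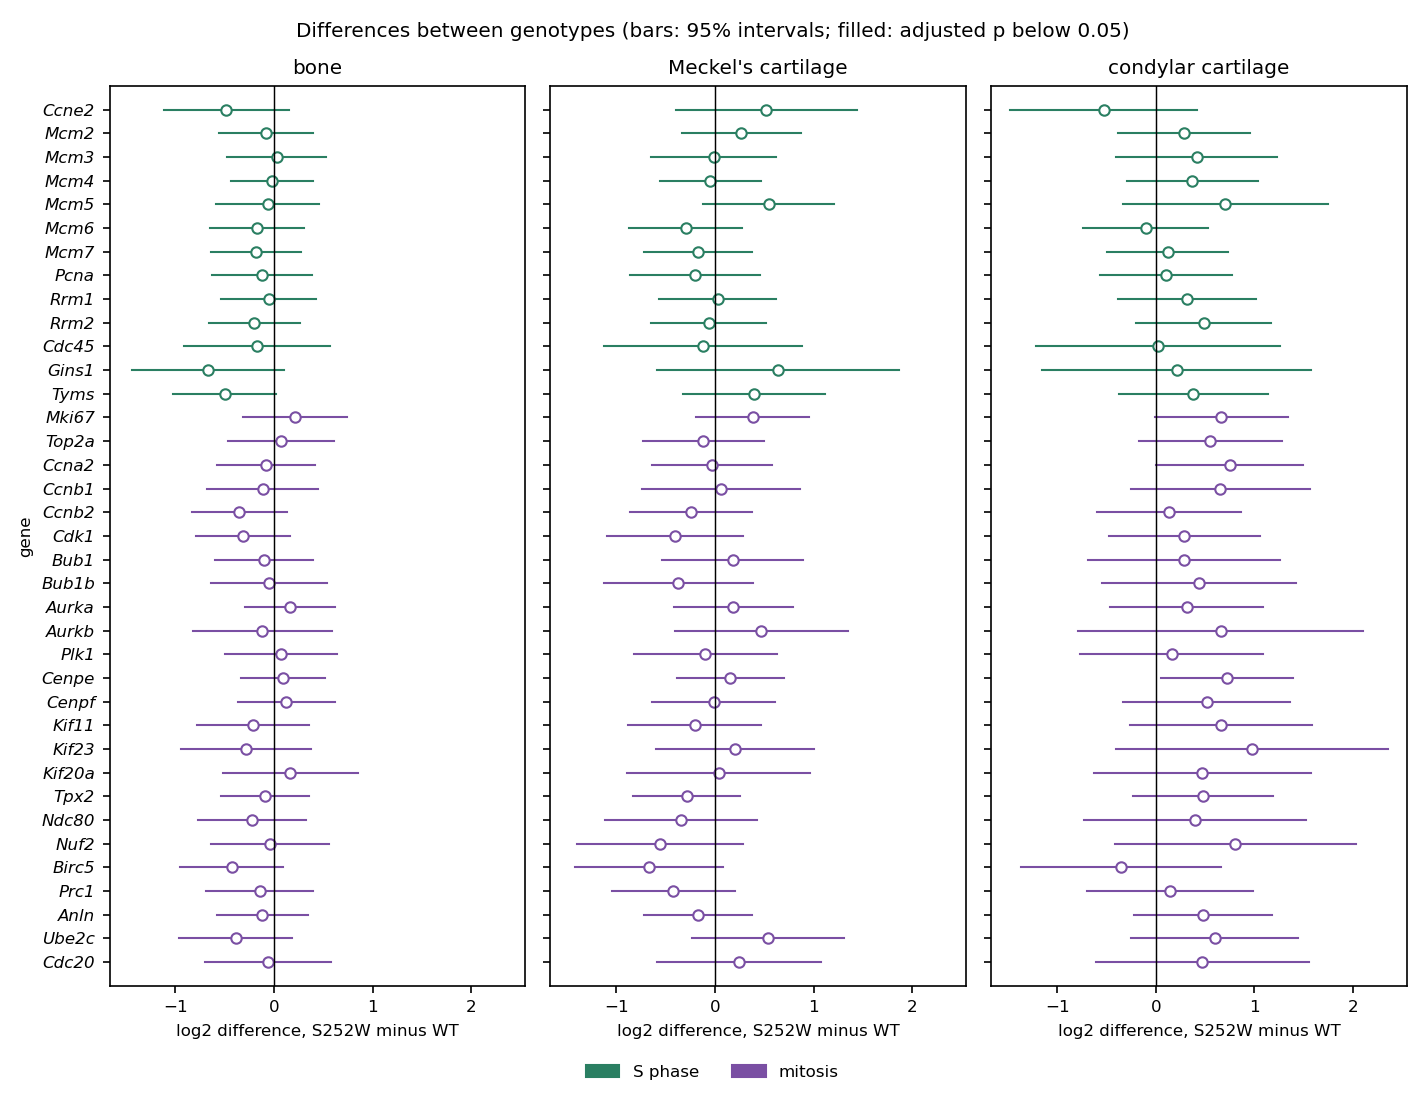
Log2 differences of 37 cell cycle genes between genotypes (*Fgfr2+/S252W* minus *Fgfr2+/+*, horizontal axes) within each tissue with 95% intervals, S phase in green and mitosis in purple. All points are open, since no adjusted p was below 0.05, and the intervals are shortest in bone and widest in MCC, where most points lie right of 0.

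In bone 0 of 37 genes were called, where 0.0872% of all genes tested were called, and 0 of 37 had an unadjusted p below 0.05, where 8.13% of all genes did. Median differences were -0.17 for S phase and -0.10 for mitosis genes, and 12 of 13 S phase and 17 of 24 mitosis genes were negative, against 50.1% of all genes. Across the 18 libraries each gene correlated with the median of the other genes of its set at 0.76 to 0.99, so these signs are not independent. When libraries were left out in turn, the medians were -0.20 to -0.03 for S phase and -0.19 to 0.04 for mitosis genes. *Tyms*, with normalized counts of 33.7, 41.3 and 31.2 in *Fgfr2+/+* and 21.9, 28.1 and 24.3 in *Fgfr2+/S252W*, had the smallest p. The groups did not overlap. Its log2 difference was -0.50 (SE 0.25, unadjusted p = 0.0607, adjusted p = 0.634). *Gins1* had 5.55, 4.77 and 3.95 against 2.15, 3.77 and 3.05 and a difference of -0.67 (SE 0.37, unadjusted p = 0.0869, adjusted p = 0.691). *Birc5* had 16.5, 17.1 and 15.6 against 10.7, 13.5 and 12.2 and a difference of -0.43 (SE 0.25, unadjusted p = 0.101, adjusted p = 0.718). With these 3, *Mcm7*, *Cdk1* and *Ube2c* made 6 genes with all mutant libraries below all control libraries, where 9.7% of all genes had that order. *Mki67* was 0.21 (95% interval -0.32 to 0.74), and for 34 of 37 genes the interval lay within 1 log2 unit of 0. The bone libraries of the 2 genotypes also differed in other cells. The erythroid list summed to 1285, 1533 and 1361 in *Fgfr2+/+* and 618, 324 and 587 in *Fgfr2+/S252W*, and the osteoclast list of 10 genes to 1056 to 1389.9 and 1985 to 2723. The mitochondrial share was 36.0%, 34.8% and 20.4% in *Fgfr2+/+* and 23.4% to 23.6% in *Fgfr2+/S252W* bone. Skeletal muscle genes, 12 in the list, summed to 926, 889 and 167 in *Fgfr2+/+* and 60.9, 73.3 and 168 in *Fgfr2+/S252W*. Their part in the bone values was not tested.

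In MC 0 of 37 genes were called, where 0% of all genes were called and 0 of 37 had an unadjusted p below 0.05, where 15.4% of all genes did. Medians were -0.01 and -0.06. *Birc5* had the smallest p, with 21.3, 16.1 and 10.5 in *Fgfr2+/+* and 8.69, 14 and 9.45 in *Fgfr2+/S252W*, a difference of -0.67 (SE 0.36, unadjusted p = 0.0798, adjusted p = 0.383). *Mcm5*, with 17.4, 10.5 and 22.1 against 22.8, 19.1 and 29.6, differed by 0.55 (SE 0.32, unadjusted p = 0.101, adjusted p = 0.421). The genotypes overlapped for each of the 37 genes, where 6.71% of all genes had all mutant libraries above all controls and 6.67% below. The median SD of the mitosis genes between replicates on the log2 scale was 0.59 in *Fgfr2+/+* MC, against 0.19 in bone and 0.42 in MCC of that genotype, and 0.37 in *Fgfr2+/S252W* MC, against 0.23 in bone and 0.51 in MCC. The interval lay within 1 log2 unit of 0 for 22 of 37 genes. The *Fgfr2+/+* library of replicate 1 had the highest value of its group for 9 of 10 genes, *Mcm5* being the exception. The 10 were *Mcm2*, *Mcm5*, *Pcna*, *Rrm2*, *Ccne2*, *Mki67*, *Top2a*, *Ccna2*, *Ccnb1* and *Cdk1*. Without it the medians became 0.43 and 0.33, without the *Fgfr2+/S252W* library of replicate 1 they became 0.42 and 0.11, and without both 0.67 and 0.48. Leaving out other MC libraries moved them the other way, to -0.20 and -0.23 without *Fgfr2+/S252W* replicate 3, to -0.02 and -0.30 without *Fgfr2+/+* replicate 2 and to -0.15 and -0.20 without *Fgfr2+/+* replicate 3. The sign of the MC medians thus depended on single libraries, with 0 genes called each time.

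In MCC 0 of 37 genes were called, where 0% of all genes were called. Here 11 of 13 S phase and 23 of 24 mitosis genes had a positive difference, where 48.7% of all genes did, with medians of 0.29 and 0.48. As in bone, these signs are not independent, since the genes vary together. *Cenpe* had 7.82, 10.7 and 11.3 in *Fgfr2+/+* and 13.9, 22.1 and 13.3 in *Fgfr2+/S252W*, without overlap, a difference of 0.72 (SE 0.32, unadjusted p = 0.0361, adjusted p = 0.998). *Ccna2* had 7.51, 7.98 and 19.8 against 16.5, 23.4 and 13.2, which overlapped, a difference of 0.75 (SE 0.36, unadjusted p = 0.0484, adjusted p = 0.998). These 2 genes had an unadjusted p below 0.05, as did 3.06% of all genes. *Rrm2*, with 7.82, 8.22 and 9.66 against 11.4, 12.8 and 11.4 and a difference of 0.48 (SE 0.33, unadjusted p = 0.155, adjusted p = 0.998), and *Tpx2*, at 0.48 (SE 0.34, unadjusted p = 0.178, adjusted p = 0.998), joined *Cenpe* as the genes with all mutant libraries above all controls, where 4.59% of all genes had that order. The exceptions in sign were *Birc5* (-0.35), *Ccne2* (-0.53) and *Mcm6* (-0.10). Intervals were wide at these low levels, and 6 of 37 lay within 1 log2 unit of 0. The medians moved with single libraries. The S phase median was 0.06 without the *Fgfr2+/+* library of replicate 1, 0.16 without its replicate 2, 0.56 without its replicate 3 and 0.19 without the *Fgfr2+/S252W* library of replicate 2. The mitosis median was 0.20 without the *Fgfr2+/S252W* library of replicate 2, 0.30 without the *Fgfr2+/+* library of replicate 1, 0.72 without the *Fgfr2+/S252W* library of replicate 1 and 0.72 without the *Fgfr2+/+* library of replicate 3. Skeletal muscle sums were 14.7, 279 and 558 in *Fgfr2+/+* and 24.4, 17.7 and 10.1 in *Fgfr2+/S252W* MCC, and their part was not tested.

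Whether the genotype difference itself varied between tissues was tested as an interaction, and 0 of 37 genes were called in each of 3 comparisons that share their libraries, by limma-voom, edgeR and DESeq2 alike. An unadjusted p below 0.05 was found by limma-voom for 1 gene between bone and MCC (2.86% of all genes), 0 between bone and MC (9.6% of all genes) and 0 between MCC and MC (7.88% of all genes). Between bone and MCC, where 0% of all genes were called, the differences in bone minus those in MCC were negative for 37 of 37 genes, against 48.8% of all genes, with medians of -0.38 for S phase and -0.56 for mitosis genes. Since the genes vary together across libraries, these signs are not independent. The median over the 37 genes was -0.84 to -0.20 when libraries were left out in turn. *Ube2c* had 45.4, 52.4 and 44.9 and 33, 35.6 and 40.4 in bone of *Fgfr2+/+* and *Fgfr2+/S252W* and 6.39, 10.6 and 16.2 and 12.1, 19.3 and 16.2 in MCC. Its interaction was -0.99 (SE 0.46, unadjusted p = 0.0481, adjusted p = 1.00), and that of *Tyms* was -0.87 (SE 0.48, unadjusted p = 0.084, adjusted p = 1.00). Between bone and MC, where 0.0174% of all genes were called, the smallest p values were those of *Ube2c* (-0.94 (SE 0.49, unadjusted p = 0.0749, adjusted p = 0.565)) and *Ccne2* (-1.08 (SE 0.60, unadjusted p = 0.0901, adjusted p = 0.582)). Between MCC and MC, where 0% of all genes were called, they were those of *Nuf2* (1.34 (SE 0.76, unadjusted p = 0.0956, adjusted p = 0.684)) and *Tpx2* (0.78 (SE 0.45, unadjusted p = 0.101, adjusted p = 0.692)). The medians of the interactions with MC moved with 1 library, while 0 genes were called. Between bone and MC they were -0.16 for S phase and -0.01 for mitosis genes, and -0.67 and -0.49 without the *Fgfr2+/+* MC library of replicate 1. Between MCC and MC they were 0.18 and 0.58, and -0.17 and 0.06 without it.

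Among all genes tested, 0.0872% were called between genotypes in bone and 0% in MC and in MCC. Of the 140 other cell cycle genes tested, *Cdkn1c* was the single one called between genotypes, in bone. Its normalized counts were 287 to 333 in *Fgfr2+/+* bone (mean 304 ± 25.3 SD, n = 3) and 148 to 181 in *Fgfr2+/S252W* bone (mean 167 ± 16.7 SD, n = 3), without overlap. The log2 difference was -0.87 (SE 0.16, adjusted p = 0.0452). In MC the difference was 0.10 (SE 0.16, adjusted p = 0.802) and in MCC -0.05 (SE 0.16, adjusted p = 0.998), with means of 1712 ± 350 (SD, n = 3) and 1637 ± 182 (SD, n = 3) in MCC. The bone call lay near the threshold: *Cdkn1c* was past it in 16 of 29 other settings of the analysis, with a log2 difference between -0.93 and -0.79 and an adjusted p between 0.000606 and 0.390. The difference between bone and MC was -0.98 (SE 0.21, adjusted p = 0.154), so the bone value was not shown to be particular to bone.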

How the data were processed

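RNA of laser-captured tissue was amplified (NuGEN Ovation RNA-seq System), made into Nextera XT libraries and read in pairs on an Illumina HiSeq. The authors trimmed the reads, used STAR to place them on mm10, and obtained fragments per gene over Ensembl GRCm38 exons from featureCounts v1.5.0-p1, without regard to strand and without fragments that mapped to several places or genes. The deposited files hold raw counts per gene, in which amplification copies cannot be told from separate molecules.

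Genes that exceeded 1 FPKM in no fewer than 50% of libraries (11469) were scaled by TMM (edgeR 4.0.16) and tested with limma 3.58.1 (voom, which adds 0.5 to each count, and empirical Bayes) in R 4.3.3. Tests were two-sided, and p-values were adjusted by Benjamini-Hochberg over all 11469 genes. Genotypes were compared in a model of 6 group means, and tissues and interactions in a model with the embryo as a block, embryos being tied across tissues by the numbers in the labels (inferred). Same-numbered embryos of the 2 genotypes were not paired. The scripts were tested on simulated data. Alternatives included DESeq2 1.42.0 and edgeR's quasi-likelihood test.

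The members and lists were chosen with earlier results of these data known. The rule gave 10 genes in every library, for each comparison the 3 genes with the smallest p past the threshold in each direction (or the 2 smallest p where none passed), up to 3 genes per direction of each other cell cycle list, and *Cdkn1c*. Genes named outside this rule (*Mcm6*, *Mcm7*, *Cenpe* and *Cdk1* between bone and MC, and the members given by size alone) were chosen after their values were seen.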

Additional observations from a re-analysis of the deposited data

How the results depend on the processing

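Genotype counts stayed at 0 for S phase and mitosis genes in all 3 tissues under 29 other settings each, and interaction counts at 0 under 28. By limma-voom with all libraries, 0.0872% of all genes were called between genotypes in bone and 0% in MC and in MCC, so these counts were close to the share of all genes. A fit with the replicate block, which pairs same-numbered embryos of the 2 genotypes, called 0 genes in each tissue. Deviations of same-numbered embryos of the 2 genotypes correlated at 0.103 on average in bone, -0.125 in MC and 0.169 in MCC. Deviations of 2 tissues of the same embryo, the tie used as a block, correlated at -0.00138. With 3 embryos in a group these values show neither tie and cannot exclude either. In bone against MCC, 13 to 14 S phase and 24 mitosis genes were called in every setting, with medians of 1.15 to 1.59 and 1.83 to 2.19. In MCC against MC, 11 to 14 and 24 were called, with medians of -1.77 to -1.26 and -2.25 to -1.82, and 11 came from leaving out the *Fgfr2+/+* MC library of replicate 1, alone or with its *Fgfr2+/S252W* counterpart. In bone against MC, *Mcm7* made 1 S phase gene called, lower in bone, with DESeq2 (adjusted p = 0.0322), with size factors by relative log expression (0.0472), with the 12 libraries of both tissues alone (0.0490) and with no replicate block for the embryo (0.0333), and 0 to 1 genes were called when libraries were left out in turn. Mitosis genes called were 0 with no filter on low counts (*Prc1* -0.54, adjusted p = 0.0804) and 2 with the 12 libraries alone (*Prc1* and *Kif23*, lower in bone). They were 0 to 2 when libraries were left out in turn, and 2 (*Cenpe* and *Cdk1*, higher in bone) without both MC libraries of replicate 1, a setting chosen after seeing the data. With no filter the median of all genes shifted to -0.39 for bone minus MC, -0.17 for bone minus MCC and -0.41 for MCC minus MC. *Cdkn1c* in bone did not pass the threshold in 13 of 29 alternatives. Of 4600 values across settings of the genes that the rule gave for each comparison, 4545 kept direction and side of the threshold, 52 were weaker, 3 stronger and 0 reversed. This tally leaves out genes named outside the rule, such as *Mcm7* and *Cenpe* between bone and MC, whose calls changed with the setting. The genotype intervals lay within 1 log2 unit of 0 for 34 of 37 genes in bone, 22 in MC and 6 in MCC, where the cell cycle genes had their lowest normalized counts.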
